A study of Danio rerio with 12 samples.

Results

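Promoter accessibility was examined at 10 genes that encode histone chaperones other than FACT: nasp, asf1ba, asf1bb, chaf1a, chaf1b, ubn1, daxx, atrx, npm1a and anp32e. They were taken by gene symbol from a table of windows around transcription start sites. Each gene had 1 window, so the genes account for 10 of the 15674 distinct windows in the table, and all 10 passed the filter on low signal that left 15431 windows for testing. The assay was ATAC-seq, which marks open DNA by the adapters that Tn5 transposase can insert there. It was run on zebrafish embryos at 32 hpf (hours post fertilization), whole apart from the removed yolk. Homozygous supt16h mutants (supt16h-/-) were compared with wildtype siblings, and Supt16h is the large subunit of the histone chaperone FACT. There were 3 biological replicates a group, each sequenced as 2 technical repeats, so 12 libraries, and 50000 cells went into a library. The labels give the strain as WT or MUT and name no allele, and the series text gives 40 embryos without saying how they were shared among replicates. A whole embryo mixes many tissues, so a window with more signal per cell and a larger share of cells in which it is open cannot be told apart.

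Histone chaperones bind histones that are not on DNA and hand them to the next step of nucleosome assembly. For H3 and H4, Nasp holds the soluble supply, Asf1 carries H3-H4 dimers, and the CAF-1 complex places them on newly copied DNA. The variant H3.3 is deposited outside replication by the HIRA complex, of which ubinuclein is a subunit, and by Daxx with the remodeller Atrx. Nucleophosmin binds histones in the nucleolus, and ANP32E removes the variant H2A.Z from nucleosomes in human and mouse cells.

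Values are normalized log2 signal in windows of 4000 bp with a start site in the middle (GRCz10), and differences are mutant minus wildtype on that scale. All windows have the same length, so their levels can be set side by side, with no correction for how well reads map. The table gives no counts, so the read depth is unknown. Over the tested windows the library medians lay between 7.35 and 7.43. The SD over windows was 1.40 to 1.53 in mutant libraries. Each wildtype replicate paired a library of smaller SD (1.28, 1.33 and 1.34) with a library at 1.41, 1.47 and 1.46. The part of this in the differences between groups was not tested. Directions follow the names of the library columns. The authors' deposited log2 fold change, headed mutant against wildtype, has the opposite sign at all 3086 entries that the table calls. The supt16h window itself lay at 8.62 ± 0.12 in mutants and 8.55 ± 0.28 in wildtype siblings (SD, n = 3 each, adjusted p = 0.776), and an open promoter checks no genotype. Windows at 8 marker genes of neurons, muscle, red cells, endothelium, neural crest, epidermis, heart and endoderm all had signal, with means from 5.35 to 9.96 in mutants and from 5.45 to 9.81 in wildtype siblings. Only 16 of the 15674 windows had no tags, so signal at a marker does not check which tissues were present. Of the 8 markers, the endothelial marker cdh5 was called lower, at 6.5 in mutants and 6.8 in wildtype siblings (difference -0.31, limma adjusted p = 0.0151), and the other 7 did not pass. Its part in the results at the chaperone windows was not tested. Technical repeats of wildtype replicates differed as much as libraries of separate wildtype replicates. The SD of the difference over windows was 0.184 to 0.204 against 0.166 to 0.261. Across replicates, wildtype libraries of smaller SD were 0.166 to 0.175 apart, and the wider ones 0.173 to 0.185. A smaller and a wider library of separate replicates were 0.184 to 0.261 apart. Wildtype libraries thus resembled each other by SD over windows at least as much as by replicate number. In mutants the technical pairs differed less, with 0.111 to 0.187 against 0.189 to 0.237 between replicates.

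The windows of nasp and npm1a rose in mutants, by 0.39 and 0.30. That is 1.31-fold and 1.23-fold if the deposited values are plain log2, since their transformation is not named. The other 8 windows did not pass the test, and none was called lower. So 2 of 10 windows were called at an adjusted p of 0.05 in limma, beside 11.6% of all tested windows, and the count of 2 stands close to that background. In the rising direction the background was 8.02%, and in the falling direction 3.58%. At an unadjusted p under 0.05, 3 windows lay higher (nasp, npm1a and asf1ba) and 1 lower (atrx). Differences ran from -0.21 at atrx to 0.39 at nasp, with a median of 0.11, against a median of -0.02 and quartiles of -0.10 and 0.09 over all tested windows. Of the 10 differences 7 were positive and 3 negative.

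Same-numbered replicates of the groups deviated together, so a fit that blocks on replicate number is given where it changes a call. With the block 4 windows were called, beside 23.5% of all tested windows. They were nasp, npm1a and asf1ba, which were higher (14% of all windows), and atrx, which was lower (9.47%). The authors' deposited table calls the same 4 windows, with adjusted p of 2.12e-06 for nasp, 0.00249 for npm1a, 0.00431 for asf1ba and 0.0321 for atrx, and 18.6% of all its entries. In that table the log2 fold changes, with the sign as deposited, were -0.55, -0.39, -0.35 and 0.30 in the same order. Each exceeds in size the difference in the fit of 3 against 3 (0.39, 0.30, 0.26 and -0.21). The reason was not tested.

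**Figure D1:**
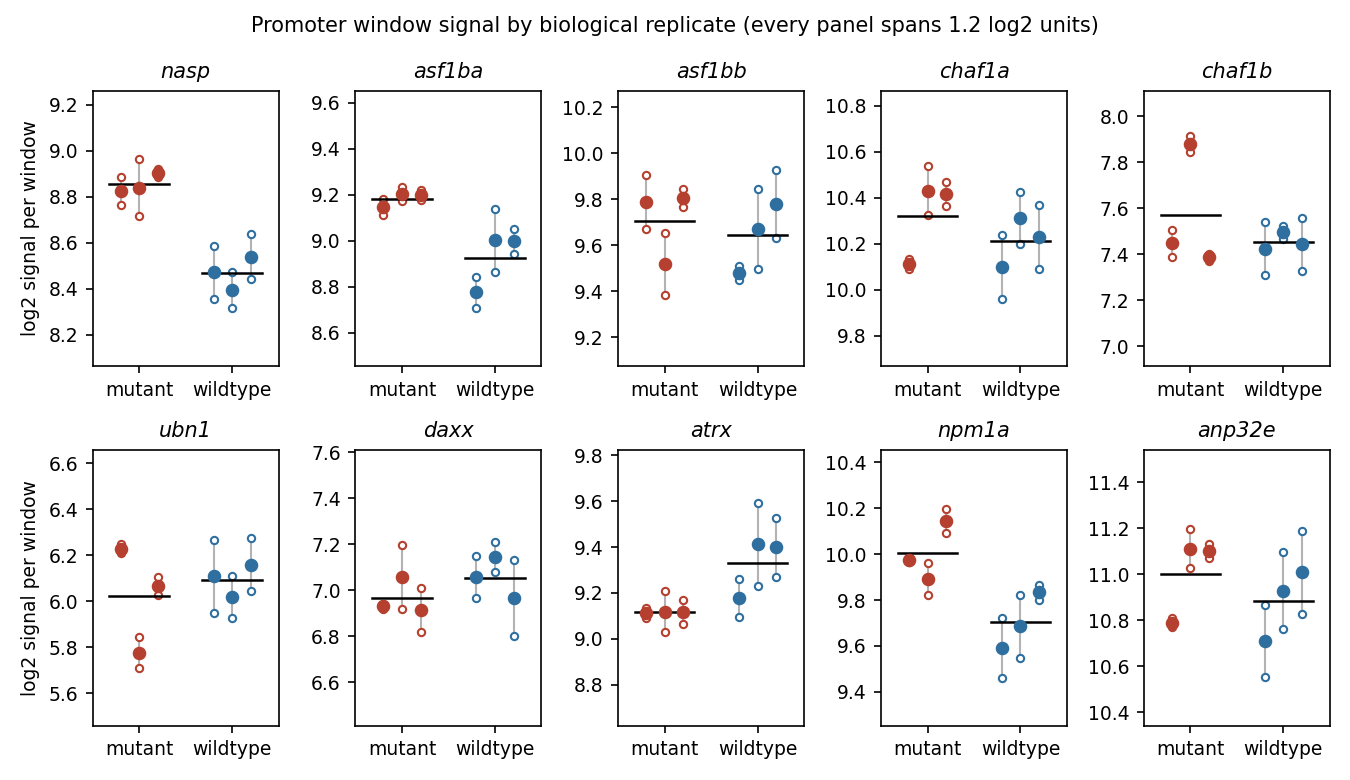
Log2 signal per window (vertical axis) at the 10 chaperone genes in supt16h mutants (left in each panel) and wildtype siblings (right). Filled points are biological replicates 1 to 3, open points their technical repeats, and black lines group means. At nasp, asf1ba and npm1a all 3 mutant replicates lie above all 3 wildtype replicates, at atrx they lie below, and the remaining 6 panels overlap.

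Of the 3 genes that supply and carry H3-H4, nasp was called and both asf1b genes were not. The nasp window (chromosome 6, 33930098 to 33934098, minus strand) had 8.83, 8.84 and 8.90 in mutant replicates 1 to 3, against 8.47, 8.39 and 8.54 in wildtype siblings. The groups did not overlap, and all 6 mutant libraries, from 8.72 to 8.96, lay above all 6 wildtype libraries, from 8.32 to 8.64. The means were 8.86 ± 0.041 in mutants and 8.47 ± 0.073 in wildtype siblings (SD, n = 3 each). The difference was 0.39 ± 0.076 (SE, 95% interval 0.23 to 0.55, adjusted p = 0.00265). The call was kept in 15 of 16 alternative fits. It was lost with the slope of each replicate's values on the mean of all replicates as a covariate. The difference was then 0.36 ± 0.106 (SE, adjusted p = 0.1).

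asf1ba and asf1bb are duplicate genes for Asf1b. At asf1ba (chromosome 3, 45367463 to 45371463, minus strand) mutants had 9.15, 9.20 and 9.20, against 8.78, 9.001 and 8.997 in wildtype siblings. The groups did not overlap, with wildtype replicate 1 lowest. Single libraries overlapped, with the lowest mutant library at 9.11 and the highest wildtype library at 9.14. The technical repeats of wildtype replicate 2 were 0.277 apart, more than the groups were. The difference of 0.26 ± 0.082 (SE, 95% interval 0.085 to 0.43) did not pass (adjusted p = 0.0504), and was called with the replicate block (adjusted p = 0.00587). After cyclic loess normalization it was 0.16 and not called, without the block (adjusted p = 0.162) or with it (adjusted p = 0.0827). At asf1bb (chromosome 1, 55209256 to 55213256, minus strand) mutants had 9.79, 9.52 and 9.80, against 9.48, 9.67 and 9.78 in wildtype siblings. The groups overlapped, and each held a low replicate, number 2 in mutants and number 1 in wildtype siblings. The difference was 0.06 ± 0.096 (SE, 95% interval -0.14 to 0.26, adjusted p = 0.752).

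The asf1ba window was less open than that of its duplicate in every replicate. The gap, asf1ba minus asf1bb, was -0.52 ± 0.18 in mutants and -0.72 ± 0.058 in wildtype siblings (SD, n = 3 each). The gap was narrower in mutants by 0.20, and a two-sided exact permutation test gave p = 0.1, the smallest that 3 against 3 allows (0.3 adjusted over the 3 gene pairs compared). The test did not use the replicate numbers. The design therefore cannot show by this test that the duplicates differ in their response.

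CAF-1 is represented by its large subunit, chaf1a, and its middle subunit, chaf1b. At chaf1a (chromosome 22, 22274944 to 22278944, minus strand) mutants had 10.11, 10.43 and 10.42, against 10.10, 10.31 and 10.23 in wildtype siblings. In both groups replicate 1 was the lowest, and the groups overlapped. The difference was 0.11 ± 0.093 (SE, 95% interval -0.088 to 0.30, adjusted p = 0.524). At chaf1b (chromosome 9, 30743014 to 30747014, minus strand) mutants had 7.45, 7.88 and 7.39, against 7.42, 7.49 and 7.44 in wildtype siblings. Mutant replicate 2 stood apart from the other 5 values, in both of its technical repeats (7.91 and 7.84), and the mutant SD of 0.27 was the widest mutant SD of the 10 windows. The difference was 0.12 ± 0.11 (SE, 95% interval -0.12 to 0.35, adjusted p = 0.567), and -0.037 without mutant replicate 2.

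Window signal differed between these genes far more than between the genotypes. The chaf1a window exceeded the chaf1b window by 2.75 ± 0.25 in mutants and 2.76 ± 0.075 in wildtype siblings (SD, n = 3 each, exact permutation p = 0.9, adjusted 0.9). The chaf1a window had more signal than 98.3% of tested windows and the chaf1b window more than 53.0%. The chaf1a window also holds the start site of a neighbouring gene, scamp4, so its signal cannot be assigned to chaf1a alone.

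At the 3 genes for H3.3 deposition the differences in the fit of 3 against 3 were negative, and none was called in that fit. At ubn1 (chromosome 1, 8591875 to 8595875, minus strand), which encodes a ubinuclein of the HIRA complex, mutants had 6.23, 5.78 and 6.07, against 6.11, 6.02 and 6.16 in wildtype siblings. Mutant replicates 1 and 2 were the highest and the lowest of the 6 values, so the wildtype range lay inside the mutant one. The difference was -0.07 ± 0.099 (SE, 95% interval -0.28 to 0.14, adjusted p = 0.716). ubn1 had the lowest signal of the 10 windows, above 21.0% of tested windows.

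At daxx (chromosome 19, 7112711 to 7116711, minus strand), which encodes the H3.3 carrier that works with Atrx, mutants had 6.93, 7.06 and 6.91, against 7.06, 7.14 and 6.97 in wildtype siblings. The groups overlapped, although each mutant replicate was below the wildtype replicate of its number, by 0.051 to 0.127. The difference was -0.09 ± 0.077 (SE, 95% interval -0.25 to 0.075, adjusted p = 0.533). Technical repeats of wildtype replicate 3 differed by 0.33, more than the groups did.

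At atrx (chromosome 14, 10348961 to 10352961, plus strand), the remodeller partner, mutants had 9.11, 9.12 and 9.12, against 9.18, 9.41 and 9.40 in wildtype siblings. The groups did not overlap, and the mutant replicates were almost equal (SD 0.003) while those of the wildtype were not (SD 0.13). Single libraries overlapped, since 3 of 6 mutant libraries lay above the lowest wildtype library, and the technical repeats of wildtype replicate 2 were 0.361 apart. The difference was -0.21 ± 0.082 (SE, 95% interval -0.38 to -0.039) and did not pass (adjusted p = 0.11). It was called lower with the replicate block (adjusted p = 0.0219), after quantile normalization (-0.34, adjusted p = 0.00592) and after cyclic loess normalization (-0.33, adjusted p = 0.00736). None of the 6 fits that left out 1 replicate called it (limma adjusted p = 0.0519 to 0.347). Of all tested windows 6.07% had a lower difference. The gap between atrx and daxx was 2.15 ± 0.078 in mutants and 2.27 ± 0.16 in wildtype siblings (SD, n = 3 each, exact permutation p = 0.4, adjusted 0.6).

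Of the remaining chaperones, npm1a was called and anp32e was not. At npm1a (chromosome 10, 22063042 to 22067042, plus strand), which encodes nucleophosmin, mutants had 9.98, 9.89 and 10.14, against 9.59, 9.69 and 9.83 in wildtype siblings. The groups did not overlap, and 5 of 6 mutant libraries lay above the highest wildtype library. Technical repeats of wildtype replicates 1 and 2 were 0.263 and 0.277 apart, nearly as much as the groups were. The difference was 0.30 ± 0.088 (SE, 95% interval 0.12 to 0.49, adjusted p = 0.0327). It no longer passed when mutant replicate 3 was left out (difference 0.23, adjusted p = 0.163), nor without wildtype replicate 1 (0.25, adjusted p = 0.156) or 2 (0.29, adjusted p = 0.107). After cyclic loess normalization the npm1a difference was 0.12 (adjusted p = 0.36).

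At anp32e (chromosome 19, 42757005 to 42761005, plus strand) mutants had 10.79, 11.11 and 11.10, against 10.71, 10.93 and 11.01 in wildtype siblings. Replicate 1 was the lowest in both groups, and the groups overlapped. Technical repeats of wildtype replicates were 0.314 to 0.360 apart, more than the groups were. The difference was 0.12 ± 0.099 (SE, 95% interval -0.093 to 0.33, adjusted p = 0.514). anp32e was the most open of the 10 windows, with more signal than 99.7% of tested windows. Its direction depended on the scaling, and it was called lower (-0.17, adjusted p = 0.0189) where the block was combined with cyclic loess normalization.

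**Figure D2:**
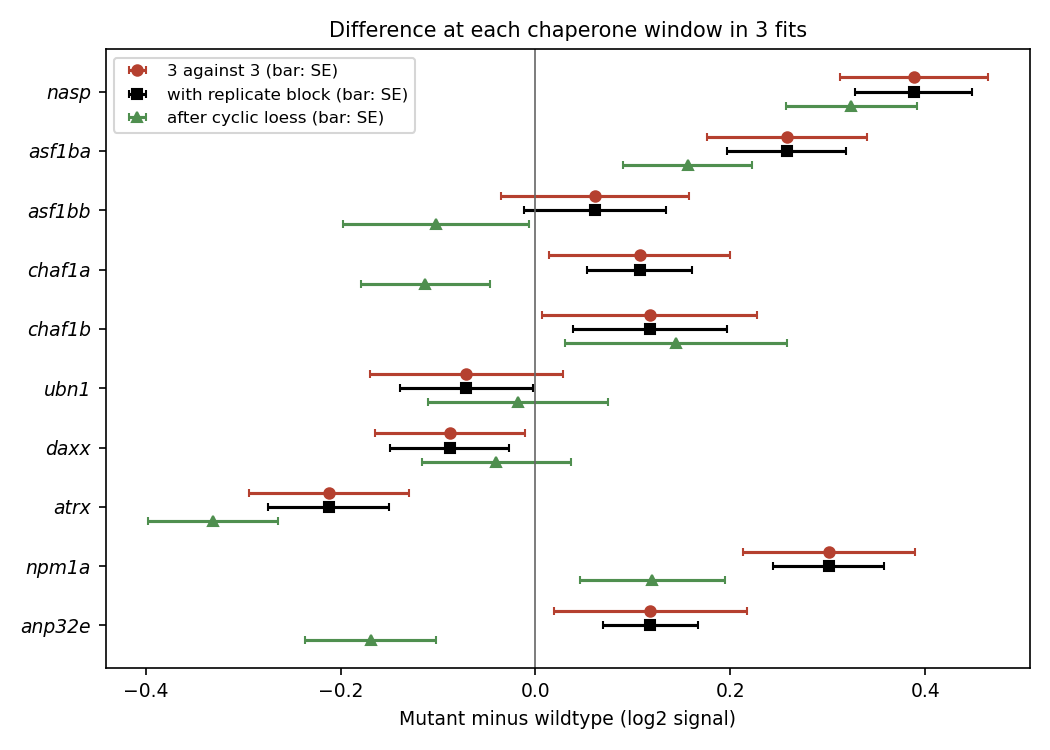
Difference in log2 signal, mutant minus wildtype (horizontal axis), at each of the 10 windows in 3 fits, with bars of 1 SE. Circles are the fit of 3 against 3, squares the fit blocked on replicate number, and triangles the values after cyclic loess normalization. nasp stays between 0.32 and 0.39, while asf1bb, chaf1a and anp32e change sign after cyclic loess normalization.

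Within replicate numbers the windows divided into those with 1 direction and those without. The mutant replicate exceeded the wildtype replicate of its number at all 3 numbers for nasp (0.36, 0.45 and 0.36), asf1ba (0.37, 0.20 and 0.20) and npm1a (0.39, 0.21 and 0.31). It did so by smaller amounts for anp32e (0.079, 0.184 and 0.092) and chaf1a (0.014, 0.121 and 0.187). It was lower at all 3 numbers for atrx (-0.063, -0.292 and -0.281) and daxx. For asf1bb (0.31, -0.15 and 0.027), chaf1b (0.023, 0.38 and -0.056) and ubn1 (0.12, -0.24 and -0.094) the sign differed between numbers. So 7 of 10 windows had 1 sign at all 3 numbers, beside 53.7% of all tested windows. Groups of 3 did not overlap at 4 of 10 windows, beside 29.6% of all tested windows.

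**Figure D3:**
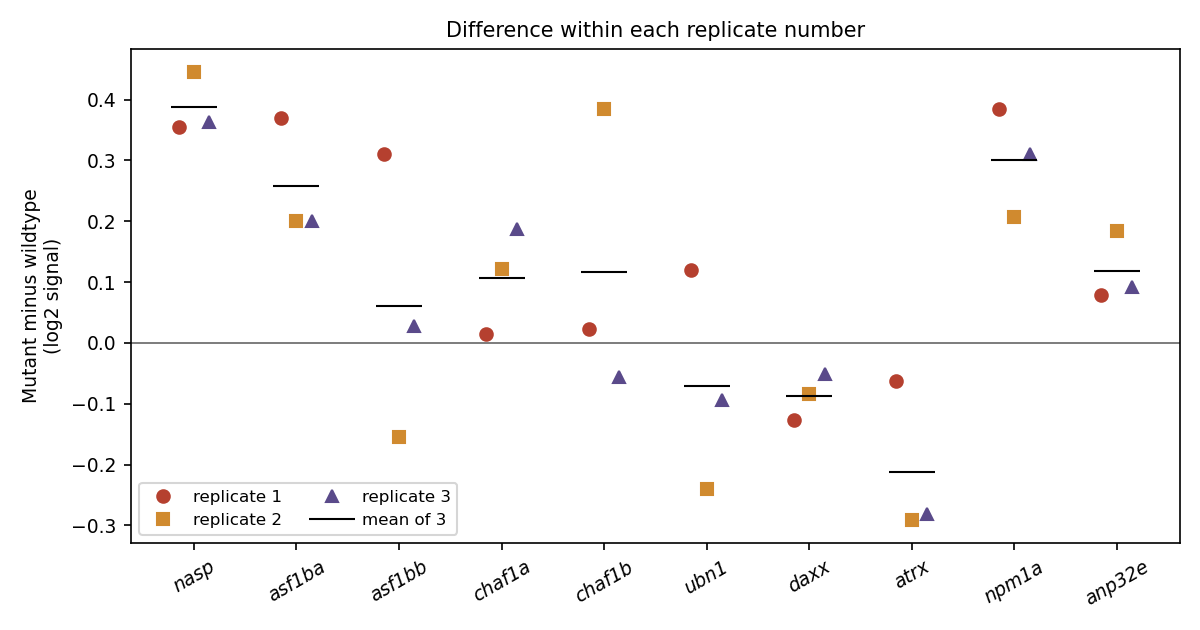
Mutant minus wildtype log2 signal within each replicate number (vertical axis) for the 10 windows, with the mean of the 3 as a black line. The nasp points lie between 0.36 and 0.45, those of atrx are all below 0, and those of asf1bb, chaf1b and ubn1 lie on both sides of 0.

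Most of these promoters were strongly open. The median signal of the 10 windows was 9.14, against 7.40 over all tested windows, and 6 of them lay in the highest 20% of tested windows. In these data the difference between groups grew with signal. Among the 1712 windows with a mean signal between 9 and 10, which include asf1ba, asf1bb, atrx and npm1a, the median difference was 0.11, 24% were called higher and 1.29% lower. Among the 441 windows at 10 or more, which include chaf1a and anp32e, the median was 0.21 and 42.2% were called higher. Between 8 and 9, where nasp lies, the median was 0.04 and 12.4% were called higher. The slope of a replicate's values on the mean of all replicates was 0.994, 1.037 and 1.042 in mutants and 0.951, 0.988 and 0.988 in wildtype siblings, so the slopes of the groups did not overlap. With the slope as a covariate none of the 10 windows was called, and calls over all tested windows fell from 1790 to 442. The nasp difference was then 0.36 ± 0.106 (SE, limma adjusted p = 0.1), against 0.39 ± 0.076 without the covariate. Slope and genotype go together in these 6 replicates, so this fit cannot tell them apart. Each wildtype replicate averages a library of smaller SD over windows with a wider library, and its part in the trend was not tested.

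Set beside windows of like signal, nasp lay above the upper quartile of its class (0.16), and npm1a above that of its own (0.26), with asf1ba at it. The atrx difference lay below the lower quartile of the same class (0.005). chaf1a and anp32e lay between the quartiles of theirs (0.07 and 0.41), as did asf1bb, ubn1 (class quartiles -0.13 and 0.02) and daxx. chaf1b, which was not called, lay above the upper quartile of its class (0.07). Cyclic loess normalization evens out differences between libraries that vary with signal, also any that go with genotype. The trend left after that normalization was not measured. In that fit 1 of the 10 windows was called higher (nasp, 0.32, adjusted p = 0.00799) and 1 lower (atrx), beside 11.1% of all tested windows. The median of the 10 was then -0.03, and asf1bb, chaf1a and anp32e turned to -0.10, -0.11 and -0.17 without passing. Over all windows the share of calls that were higher was 69.2% without and 58.9% with that normalization.

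**Figure D4:**
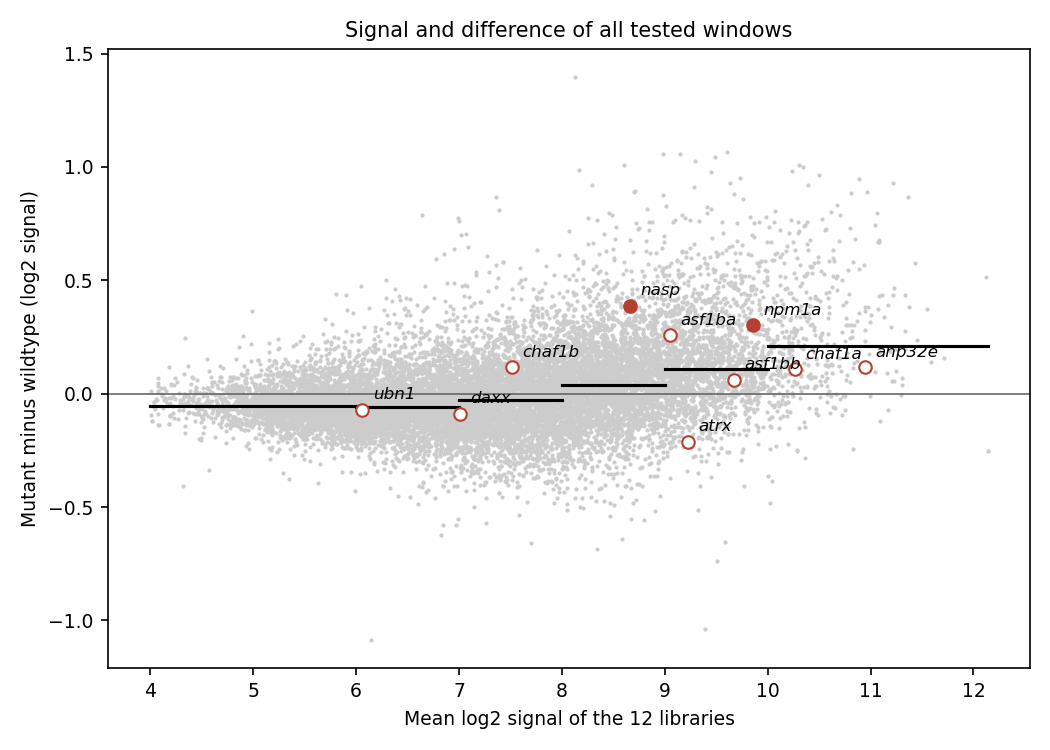
Mean log2 signal of the 12 libraries (horizontal axis) and mutant minus wildtype difference (vertical axis) of 15431 tested windows in grey, with the 10 chaperone windows as circles, filled where limma called them. Black lines are medians of windows in classes of signal, which climb to 0.21 at a signal of 10 or more. atrx lies at -0.21 where the class median is 0.11.

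The surroundings of the genes were read from the same table. Both asf1b duplicates lie beside a duplicate of the gene for a catalytic subunit of protein kinase A. prkacaa starts 10.9 kb from asf1ba and prkacab 15.7 kb from asf1bb, on the same strand as their neighbours. Neither neighbour passed, with differences of -0.12 ± 0.086 and -0.11 ± 0.085 (SE, adjusted p = 0.419 and 0.472). The windows of chaf1a and scamp4, which start 692 bp apart on opposite strands, overlap, and their differences of 0.11 and 0.10 count largely the same signal. Around nasp, the nearest start site in the table, akr1a1b at 8.58 kb, had a difference of -0.08 (adjusted p = 0.545), and the overlapping windows of prpf38a and orc1, at 14.9 and 15 kb, each had 0.21 to 0.22 (adjusted p = 0.072 and 0.0746). Of the 10 windows, the one of chaf1a was the only window that overlapped that of another start site in the table.

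Genes that work with these chaperones were counted in 4 lists. Of 40 symbols for other chaperones and their partners, 24 had a tested window. In limma 7 of these rose, 17 did not pass and none fell. Of all tested windows 8.02% were called higher and 3.58% lower, and the list median was 0.14. At an unadjusted p under 0.05 there were 10 higher and 1 lower. seta, which encodes the acidic chaperone Set, had 10.73, 10.60 and 10.78 in mutants, against 10.12, 10.03 and 10.29 in wildtype siblings, and rose by 0.56 ± 0.084 (SE, adjusted p = 0.00027). Its duplicate setb rose by 0.30 ± 0.075. ncl, which encodes the nucleolar protein nucleolin, rose by 0.48 ± 0.079. hat1, whose product acetylates newly made H4, rose by 0.48 ± 0.11.

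rbbp4, which encodes the histone-binding subunit that CAF-1 shares with other complexes, rose by 0.36 ± 0.079 (SE, adjusted p = 0.00575). Its mutant values were 8.60, 8.78 and 8.75, against 8.42, 8.34 and 8.29 in wildtype siblings. All mutant replicates were above all wildtype ones, as at 15.5% of all tested windows, while the groups overlapped at chaf1a and chaf1b. The difference between these windows was not tested. anp32b, of the same protein family as anp32e, rose by 0.35 ± 0.078. Higher calls were more frequent at high signal in all tested windows. They made up 42.2% at a signal of 10 or more, where seta lies. The share was 24% between 9 and 10 (ncl, setb and anp32b) and 12.4% between 8 and 9 (hat1 and rbbp4). After cyclic loess normalization 5 of the list were called higher (seta, ncl, hat1, rbbp4 and spty2d1). In that fit 1 was called lower, ipo9 (-0.285, adjusted p = 0.0329). Both spty2d1 and ipo9 are named after their values were seen. Of all tested windows 11.1% were called in either direction after that normalization. setb and anp32b no longer passed (adjusted p = 0.233 and 0.0749). setb also missed the threshold when any of mutant replicate 3, wildtype replicate 2 or wildtype replicate 3 was removed (adjusted p = 0.0573, 0.071 and 0.0502), and hat1 when wildtype replicate 1 was (0.0538).

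Of 19 tested windows of histone genes and histone mRNA binding proteins, limma called 6 higher and none lower, beside 8.02% and 3.58% of all tested windows. The list median was 0.08, with 9 higher and 1 lower at an unadjusted p under 0.05. The median was -0.03 after cyclic loess and -0.06 after quantile normalization, each with 2 higher and 6 lower at an unadjusted p under 0.05. hist2h3c, an H3 gene, had 10.16, 9.94 and 10.10 in mutants, against 9.60, 9.61 and 9.62 in wildtype siblings, and rose by 0.46 ± 0.079 (SE, adjusted p = 0.00097). h2afvb, which encodes an H2A.Z-type variant, rose by 0.39 ± 0.084. slbp, for the protein that binds the stem-loop of histone mRNAs, rose by 0.29 ± 0.075, and h3f3d, cenpa and h2afx, for H3.3, the centromeric H3 and H2A.X, by 0.27, 0.26 and 0.25, although h3f3d and h2afx had negative differences after quantile normalization (-0.018 and -0.039). The windows of h3f3d, cenpa and h2afx had a signal of 10 or more, where 42.2% of tested windows were called higher. Those of hist2h3c and slbp lay between 9 and 10 (24%), and that of h2afvb between 8 and 9 (12.4%). slbp and cenpa were not called without mutant replicate 3, wildtype replicate 1 or wildtype replicate 2. h3f3d and h2afx lost their calls when any replicate other than mutant replicate 1 was left out. After cyclic loess normalization hist2h3c and h2afvb were still called higher and h2afva, h2afz, h3f3c and hist2h2l, named here after their values were seen, were called lower, beside 11.1% of all tested windows called in either direction. The windows of h2afva and h2afz overlap almost entirely and are nearly 1 measurement, and reads at histone genes with near-identical copies may be split among them.

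Of 17 tested windows of the complexes that place or exchange H2A.Z, limma called 1 higher and none lower, where 11.6% of all tested windows were called. The median was 0.03 (4 higher and 0 lower at an unadjusted p under 0.05). The window that rose was that of epc1b, a scaffold of the TIP60 complex, at 0.35 ± 0.077 (SE, adjusted p = 0.00575), and this call was lost after cyclic loess normalization (0.12, adjusted p = 0.212). That normalization called 1 window of the list lower, kat5a, named after its values were seen, at -0.21 (adjusted p = 0.0476), against -0.03 (adjusted p = 0.896) without it. Of 7 tested windows of FACT and other Spt genes, limma called 1 higher (supt4h1, 0.27 ± 0.083, adjusted p = 0.0469) and none lower, beside the same 11.6%, and the median was 0.07 (3 higher and 0 lower at an unadjusted p under 0.05). The supt4h1 call held when mutant replicate 2 was left out and was lost when any other replicate was (adjusted p = 0.0562 to 0.201). With the replicate block the counts were 10 higher and 2 lower among other chaperones, 9 and 1 among histone genes, 4 and 0 for H2A.Z exchange, and 3 and 0 for FACT and Spt genes, beside 14% of all tested windows higher and 9.47% lower in that fit. No test set one list against another.

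**Figure D5:**
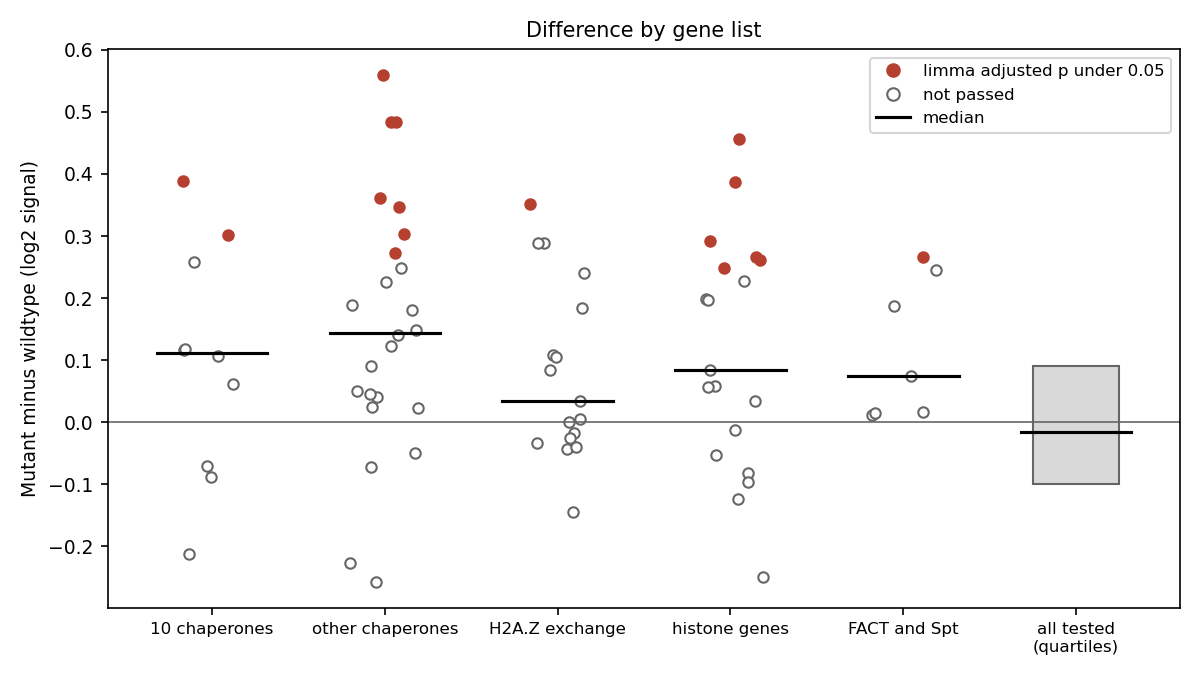
Mutant minus wildtype log2 signal (vertical axis) of the 10 chaperone windows, of 4 related lists and, as a box of quartiles, of all tested windows. Each point is 1 window, filled where limma called it, and black lines are medians, which run from 0.03 for H2A.Z exchange to 0.14 for other chaperones, against -0.02 for all tested windows.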

How the data were processed

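The values analysed are normalized log2 signal per window, deposited by the authors in a table of start-site windows without naming the transformation. Per the submitters' processing notes, CASAVA 1.8, FastQC 0.11.2, HOMER 4.9 and the build GRCz10 were used. Not given in the sources used here are the aligner, the read filters and any Tn5 shift. The same table holds the authors' deposited log2 fold change, p-value and adjusted p-value, whose test is not named.

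The 16555 entries were collapsed to 15674 windows (entries of 1 window differed by at most 0.219), and 16 windows had no tags. Windows with a mean log2 signal of at least 4 were tested. Technical pairs, named by the columns, were averaged. limma 3.58.1 in R 4.3.3 (trend and robust options) compared 3 mutant with 3 wildtype replicates, and p-values were adjusted over all tested windows (Benjamini-Hochberg). They measure the spread between these averaged replicates. A difference within technical pairs that recurs in each wildtype replicate, such as that in SD over windows, does not enter that spread. In simulated data with 200 changed windows the fit was tested for direction and size. The simulated noise was independent between replicates. It had no shared deviation of same-numbered replicates and no difference in slope between groups, so neither feature was covered.

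Same-numbered replicates deviated together, with correlations of deviations over windows of 0.461, 0.513 and 0.534 for numbers 1, 2 and 3. Those between numbers were negative. Deviations were taken from each group's mean of 3, so positive values at the same number force negative ones between numbers on average. The negative values therefore add nothing of their own. The column names give the numbers. The 16 alternatives were other normalizations, filters and variance models, the replicate block, and 6 libraries against 6. They also included the slope of replicate values as a covariate, and each replicate left out. The fit of 6 libraries against 6 counted technical repeats as separate samples, so its p-values can be too small.

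The members and lists were chosen with earlier results of these data known. Every member window is named, and up to 6 called genes per list by adjusted p. The 3 gene pairs were compared after their values were seen, by permutations that did not use the replicate numbers. hira and cabin1 were listed but are not analysed here. The planned motif search in promoters was not run, since no promoter sequences were used here. Figures were drawn with matplotlib 3.10.9.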

Additional observations from a re-analysis of the deposited data

How the results depend on the processing

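With the replicate block, 3621 windows were called, against 1790 in the fit of 3 against 3, with 4 of the 10 chaperone windows, 12 of the other chaperones, 10 histone genes, 4 of H2A.Z exchange and 3 of FACT and Spt. Of the 10 windows, the pairing changed the calls of asf1ba and atrx, and of anp32e once values were loess-normalized (adjusted p = 0.134 without and 0.0189 with the block). With 12 libraries kept apart there were 2969 calls, 4 for H2A.Z exchange and 2 for FACT and Spt. That fit counted technical repeats as separate samples, so its higher count is no sign of sturdier calls. With library medians set equal the last 2 lists had 3 and 2 calls, and also 3 and 2 with cyclic loess normalization and the block, of 3214 in all. With the replicate slope as a covariate 442 windows were called, none of the 10 (1 higher and 2 lower at an unadjusted p under 0.05 in limma), 1 of the other chaperones, 1 histone gene and 0 for H2A.Z exchange (3 and 1 at an unadjusted p). Without trend and robust options FACT and Spt had 0 (3 and 0 at an unadjusted p). Leaving out 1 replicate gave 1056 to 2223 calls, 1 to 3 of the 10 windows, 5 to 8 other chaperones, 2 to 7 histone genes, 1 to 3 for H2A.Z exchange and 0 to 1 for FACT and Spt. Without mutant replicate 3, wildtype replicate 1 or wildtype replicate 2, only nasp of the 10 windows was called and all calls numbered 1116, 1056 and 1181, and without wildtype replicate 3 they numbered 1134.

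The sign turned at asf1bb, chaf1a and anp32e after quantile normalization (-0.098, -0.130 and -0.200), after cyclic loess normalization with or without the block (-0.102, -0.113 and -0.169) and with the slope covariate (-0.003, -0.181 and -0.220), where ubn1 turned to 0.120. h3f3d and h2afx turned to -0.018 and -0.039 after quantile normalization. Leaving out 1 replicate moved asf1bb between -0.021 and 0.154, chaf1b between -0.037 and 0.209 and ubn1 between -0.174 and 0.052. The cause of these turns was not tested. asf1ba was called in 5 of 16 alternatives, atrx in 4 and npm1a in 9. The counts for asf1ba and npm1a, and the 15 of 16 for nasp, include the fit of 12 libraries. Depth is unknown, so no limit of detection can be given.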

Other observations

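For each chaperone gene only the nearest start sites within 50 kb were examined, at most 3 a gene. Among them 3 windows fell in mutants, all picked out after their values were seen. The window of zbtb22b, a zinc finger gene 32.5 kb from daxx, had 7.42 ± 0.10 in mutants and 7.90 ± 0.036 in wildtype siblings (SD, n = 3 each), a limma difference of -0.48 ± 0.077 (SE, adjusted p = 0.0005). The window of si:ch211-191i18.2, 37.1 kb from anp32e, had 7.31 ± 0.044 in mutants and 7.85 ± 0.001 in wildtype siblings (SD, n = 3 each). Its difference was -0.54 ± 0.072 (SE, adjusted p = 8.6e-05). The window of tlx3b, a homeobox gene of sensory neurons 22.4 kb from npm1a, had 6.95 ± 0.098 in mutants and 7.29 ± 0.18 in wildtype siblings (SD, n = 3 each). The tlx3b difference was -0.34 ± 0.090 (SE, adjusted p = 0.0205). The anp32e and daxx windows beside them did not pass, and that of npm1a rose. No other tested neighbour window was called. Of all tested windows 3.58% were called lower. The share was 6.86% at a mean signal between 7 and 8, where these 3 windows lie. The share of neighbour windows called lower was not computed, so the count of 3 is not compared with these shares.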
